A study of Mus musculus with 8 samples.

Results

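H3K9me2-only regions are the places where the deposited H3K9me2 ChIP-seq table of mouse embryonic fibroblasts (MEFs) lists a region and the H3K9me3 table lists none. They were chosen by position: repeat rows were removed, and a region on chromosomes 1 to 19 or X was kept when it shared no base with any of the 14515 H3K9me3 regions. This gave 1184 of the 1983 H3K9me2 regions. Another 739 on the same chromosomes share at least 1 base with H3K9me3 and are called shared regions here, and 60 lie on other chromosomes and scaffolds. The cells were immortalized with SV40 T antigen and came, on a C57bl6 strain background, from HAT1+/+ embryos (HAT1 WT) or HAT1-/- embryos (HAT1 KO). Each genotype gave 2 H3K9me2 libraries (KO1, KO2, WT1, WT2) and 2 H3K9me3 libraries, 8 in all. The labels give n = 2 for each genotype's embryos, and do not say how each line was selected after immortalization. The p-values therefore measure the spread between 2 libraries of each genotype. Human myoblasts were added to every sample as a spike-in.

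Dimethylation and trimethylation of lysine 9 of histone H3 are marks of heterochromatin, the compact and mostly silent part of the genome. Dimethylation is laid down mainly by the G9a and GLP enzymes and covers broad domains, many of them at the nuclear lamina. Trimethylation is laid down by SUV39H1, SUV39H2 and SETDB1 at pericentromeric satellites, transposable elements and some gene clusters. HAT1 acetylates newly made histone H4 before it is assembled into chromatin behind the replication fork. The H3K9me2 library totals were 5523641 (KO1), 5422405 (KO2), 8421762 (WT1) and 6496881 (WT2) reads. Hat1 itself had 0 H3K9me2-only regions over it, the nearest being 1459 kb away, and the 14 fibroblast marker genes examined had 0 as well. Neither the genotype nor the cell type can be checked from these regions.

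Sequences alike to each other made up a large part of the set, as they did of the shared regions. Of the 1184 H3K9me2-only regions, 515 matched another H3K9me2 region at 80% identity or more over at least 150 bases (43.5%, against 48.7% of the shared regions). The largest group of linked matches held 324 H3K9me2 regions, of which 251 (77.5%) were H3K9me2-only, beside 61.6% of all H3K9me2 regions on these chromosomes, spread over all 20 of them. The next groups held 107 regions with 85 H3K9me2-only and 77 regions with 53 H3K9me2-only. Further groups of 41 and 35 regions were mostly shared, with 8 and 0 H3K9me2-only. These groups were described after their values had been seen, and no repeat family was assigned to them. Copies from the largest group are printed to show how close they are. The first is the copy with the most ungapped matches, 19, to H3K9me2-only regions on other chromosomes, and the others are its best matches. Capitals mark the bases that differ from the first copy. All sequence is from GRCm38.p6, the assembly of mm10, and printed windows are counted from 1.
chr4:81832083-81832309, plus strand, nearest gene Gm11412: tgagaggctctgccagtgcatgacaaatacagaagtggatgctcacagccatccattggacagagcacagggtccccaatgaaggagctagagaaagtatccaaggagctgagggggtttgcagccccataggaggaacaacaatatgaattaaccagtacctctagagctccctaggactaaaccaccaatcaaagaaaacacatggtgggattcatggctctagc
chrX:122808703-122808929, minus strand, nearest gene Gm14940: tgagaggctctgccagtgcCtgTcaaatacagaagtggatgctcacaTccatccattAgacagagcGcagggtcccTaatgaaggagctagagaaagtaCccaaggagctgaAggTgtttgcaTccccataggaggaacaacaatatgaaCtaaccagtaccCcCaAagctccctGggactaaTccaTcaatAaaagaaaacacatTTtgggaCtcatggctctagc
chr1:55348328-55348554, minus strand, nearest gene Boll: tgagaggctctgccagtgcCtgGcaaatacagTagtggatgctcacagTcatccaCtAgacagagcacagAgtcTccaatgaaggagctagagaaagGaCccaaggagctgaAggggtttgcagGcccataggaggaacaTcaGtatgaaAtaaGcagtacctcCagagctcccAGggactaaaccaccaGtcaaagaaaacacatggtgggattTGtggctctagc

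Over these 227 bases the X copy differed from the chromosome 4 copy at 21 positions (90.7% identity) and the chromosome 1 copy at 22 positions (90.3% identity). All 3 regions had their most reads in KO2. The chromosome 4 region had 1 read in KO1, 21 in KO2, 6 in WT1 and 11 in WT2. The X region had 12, 23, 1 and 12 reads in the same order, and the chromosome 1 region had 13, 31, 5 and 7. The chromosome 4 copy also matched 806 H3K9me3 regions elsewhere in the genome. Reads that fit several such copies may be placed at any of them, and how the aligner's multiple matches were treated is not stated.

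The groups next in size are shown by a pair each, marked the same way.
chr8:54464094-54464285, plus strand, nearest gene Gm45553: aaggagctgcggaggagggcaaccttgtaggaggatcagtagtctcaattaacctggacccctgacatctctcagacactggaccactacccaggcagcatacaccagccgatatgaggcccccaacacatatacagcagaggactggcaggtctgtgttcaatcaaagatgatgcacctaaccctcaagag
chr2:46746754-46746945, plus strand, nearest gene Gm25264: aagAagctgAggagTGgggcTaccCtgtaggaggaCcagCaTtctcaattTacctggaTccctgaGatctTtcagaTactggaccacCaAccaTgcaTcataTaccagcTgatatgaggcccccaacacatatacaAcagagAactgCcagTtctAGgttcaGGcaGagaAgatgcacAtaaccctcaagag
chr13:33507175-33507417, plus strand, nearest gene Gm11387: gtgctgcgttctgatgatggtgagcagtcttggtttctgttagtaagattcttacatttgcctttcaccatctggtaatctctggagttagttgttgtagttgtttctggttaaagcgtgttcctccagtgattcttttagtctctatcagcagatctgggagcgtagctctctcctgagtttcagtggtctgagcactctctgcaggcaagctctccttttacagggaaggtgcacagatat
chr6:26936204-26936446, minus strand, nearest gene Gm42474: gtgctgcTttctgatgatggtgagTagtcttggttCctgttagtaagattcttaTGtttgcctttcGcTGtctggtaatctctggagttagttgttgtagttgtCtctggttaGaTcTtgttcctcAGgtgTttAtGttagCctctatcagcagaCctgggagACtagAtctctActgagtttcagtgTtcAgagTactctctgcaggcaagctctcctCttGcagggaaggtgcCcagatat

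The pair on chromosomes 8 and 2 differed at 31 of 192 bases, and the pair on chromosomes 13 and 6 at 29 of 243. The chromosome 8 and chromosome 2 regions had their most reads in WT2 (32 and 23 reads). The chromosome 13 region was highest in KO2 (26 reads) and the chromosome 6 region in WT1 (24 reads).

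Likeness to H3K9me3 regions was common although no base was shared with one. Of the H3K9me2-only regions, 638 (53.9%) matched at least 1 H3K9me3 region elsewhere and 450 (38.0%) matched at least 10. Among the shared regions 58.9% matched an H3K9me3 region other than the one they overlap. In the largest sequence group the median H3K9me2-only region matched 145 H3K9me3 regions. A total of 669 H3K9me2-only regions had no like H3K9me2 region, and of these 19.9% matched an H3K9me3 region. The median counts of the largest group were 12 (KO1), 19 (KO2), 11 (WT1) and 11 (WT2). Those of the 669 regions without a like region were 14, 18, 12 and 11. The medians of the largest group and of the regions without a like H3K9me2 region were thus at most 2 reads apart in each library.

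Signal in the H3K9me2-only regions was low. RPM below is the usual scaled count, a region's reads divided by its library total. The median count per region was 14 in KO1, 19 in KO2, 12 in WT1 and 11 in WT2, against 37, 38, 34 and 41 in the shared regions. The 10th to 90th percentile ran from 6 to 32 reads in KO1, 7 to 31 in KO2, 5 to 28 in WT1 and 4 to 28 in WT2. Only 4 of 1184 regions had a mean count of 100 or more, against 169 of 739 shared regions. A count of 11 has an exact Poisson 95% interval of 5.49 to 19.7, so a single region in a single library is known only coarsely. Regions in a table of called peaks are above an even spread of reads by selection. Spread evenly over the known bases, the library totals would put between 0.54 and 0.84 reads in a window of 256 bases, the median width. A count of 0 was found in 2 regions in KO1, 1 in KO2, 9 in WT1 and 11 in WT2.

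**Figure D1:**
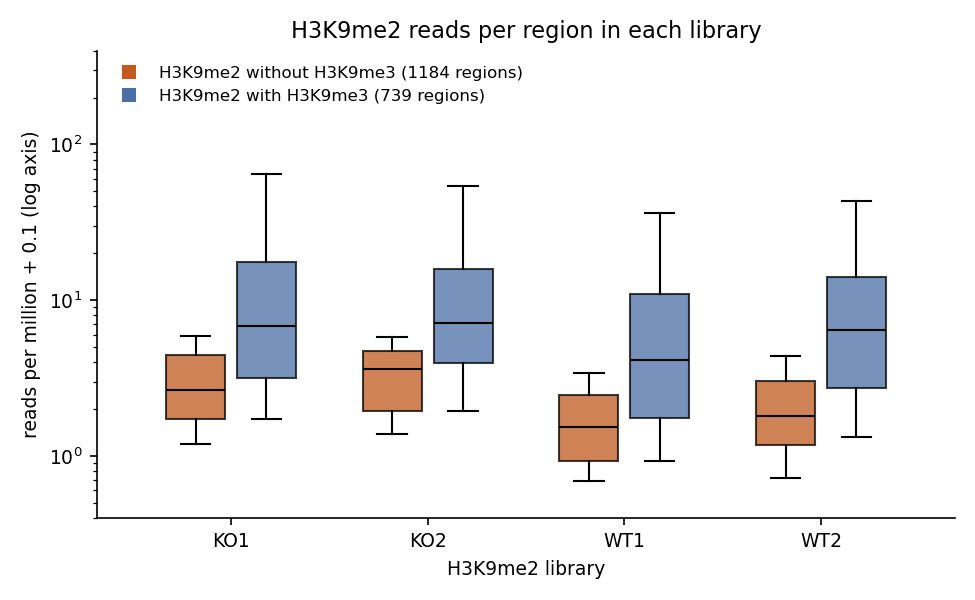
H3K9me2 RPM of each library (log axis, 0.1 added) in the 1184 H3K9me2-only regions (orange) and the 739 shared regions (blue). Boxes span the quartiles with the median as a line and whiskers span the 10th to 90th percentile. The H3K9me2-only boxes sit lower in all 4 libraries, with medians of 2.53 (KO1), 3.50 (KO2), 1.42 (WT1) and 1.69 (WT2) before 0.1 was added.

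The share of each library that fell in H3K9me2-only regions was higher in both KO libraries than in both WT libraries. It was 0.383% of reads in KO1 (95% Wilson interval 0.378% to 0.388%), 0.434% in KO2 (0.429% to 0.440%), 0.227% in WT1 (0.224% to 0.231%) and 0.281% in WT2 (0.277% to 0.285%). Intervals cover counting error only. KO averaged 0.409% ± 0.0365 and WT 0.254% ± 0.0378 (SD, n = 2 each), a ratio of 1.61. An exact two-sided permutation test gave p = 0.333, the smallest that 2 libraries against 2 allow. In the shared regions the same ratio was 1.57, from 8.45% ± 0.377 in KO and 5.38% ± 1.30 in WT (SD, n = 2). By RPM 69.8% of the H3K9me2-only regions and 66.4% of the shared regions were highest in KO1 or KO2. A region may have been listed for being high in 1 library, so the listing can enter these ratios. Its part was not tested.

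The regions were short and mostly single peaks. The median width was 256 bases, with a 10th percentile of 239 and a 90th of 381, against a median of 335 in the shared regions. Of the H3K9me2-only regions, 1157 (97.7%) listed 1 peak summit, 20 listed 2, 5 listed 3 and 2 listed 4. In the shared regions 56.6% listed 1. In the 27 H3K9me2-only regions with 2 to 4 summits, the summits lay within 100 bases of each other in 15 (55.6%), with a median span of 91 bases.

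Agreement between libraries was weak. Ranked by count, the H3K9me2-only regions had a Spearman correlation of -0.01 between KO1 and KO2 and 0.15 between WT1 and WT2. Across genotypes it ranged from -0.03 for KO2 and WT2 to 0.22 for KO1 and WT1. In the shared regions it was 0.90 for the KO libraries and 0.76 for the WT libraries. These are correlations across regions of one set of libraries, given as descriptions, and the shared regions span a wider range of counts. Among regions with a mean count under 30, the correlation was -0.13 (KO) and 0.05 (WT) in the 1131 H3K9me2-only regions and 0.25 (KO) and -0.15 (WT) in the 319 shared regions. Among those with a mean count of at least 30 it was 0.67 (KO) and 0.38 (WT) in 53 H3K9me2-only regions and 0.92 (KO) and 0.83 (WT) in 420 shared regions. The 418 shared regions with 1 summit had 0.62 (KO) and 0.33 (WT). The classes are not matched in count: of the regions with 30 reads or more, 41 of 53 H3K9me2-only regions lay under 60, against 160 of 420 shared regions. They were also cut by the mean of the libraries compared. No difference in agreement between the sets is read from them. Counts were then scaled with TMM, which assumes that most regions are level between libraries, and compared on the log2(count + 1) scale. KO1 and KO2 differed by over 2 times in 526 regions (44.4%) and WT1 and WT2 in 490 (41.4%). The shared regions gave 16.5% and 29.9%. Among regions with a mean count under 30, the share was 46.0% for KO and 42.3% for WT in the H3K9me2-only set and 33.9% for KO and 51.4% for WT in the shared set. The 53 H3K9me2-only regions with a mean count of at least 30 agreed better than the weaker ones: 11.3% differed by over 2 times between KO1 and KO2 and 22.6% between WT1 and WT2, beside 3.33% and 13.6% of the 420 shared regions, most of which had higher counts.

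Fewer than 50% of the regions were led by a single library by a wide margin. By RPM, 301 regions were highest in KO1, 526 in KO2, 146 in WT1 and 211 in WT2. In the 526 regions led by KO2, the median counts were 25 in KO2, 12 in KO1, 10 in WT1 and 9.5 in WT2. In the 301 led by KO1 they were 28 in KO1, 11 in KO2, 13 in WT1 and 10 in WT2. The 146 led by WT1 had 27 reads there and 9 to 11 elsewhere, and the 211 led by WT2 had 26 there and 10 to 11 elsewhere. In 509 regions (43.0%) the leading library exceeded the runner-up by over 2 times, against 18.7% of shared regions. The shared regions had higher counts, and this share was not computed at like counts. By RPM 69.8% of the set was led by KO1 or KO2, and after TMM 61.5%. No source used here says how the list of regions was built from the peaks. If peaks of separate libraries were joined, at least 1 library had to be high for a region to be listed. The height of the leading library may thus be part of the choice, and it carries no test.

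**Figure D2:**
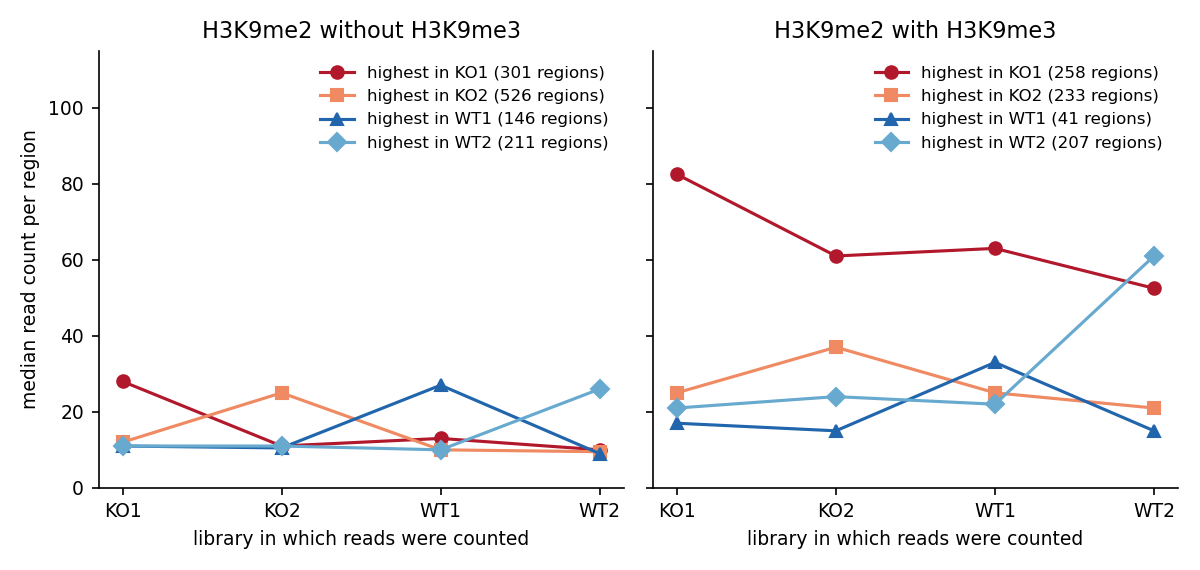
Median read count in each H3K9me2 library, for regions grouped by the library with the highest RPM, in the H3K9me2-only set (left) and the shared set (right). Lines only join the values of one group. On the left each group peaks at 25 to 28 reads in its own library and lies at 9 to 13 reads in the rest.

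The placement along chromosomes was uneven. Chromosomes 1 to 19 and X carried 0.46 H3K9me2-only regions per Mb of known sequence. By density, chromosome 15 came first with 0.76 per Mb (76 regions), followed by chromosome 10 with 84 (0.66 per Mb) and chromosome 19 with 38 (0.65 per Mb). Chromosome 7 had the lowest density, 0.19 per Mb (27 regions), then chromosome 11 with 24 (0.20 per Mb) and chromosome 18 with 23 (0.26 per Mb). The H3K9me2-only share of a chromosome's H3K9me2 regions ran from 39.0% on chromosome 8 to 80.9% on chromosome 15. Chromosome 8 had 57 H3K9me2-only and 89 shared regions, and chromosome 15 had 76 and 18. Across the 20 chromosomes, density correlated with that of H3K9me3 regions at Pearson r = 0.51 (Spearman 0.26) and with that of shared regions at r = 0.02 (Spearman 0.02), given as descriptions without a test. Chromosomes differ in how much sequence can be mapped, which was not measured here.

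**Figure D3:**
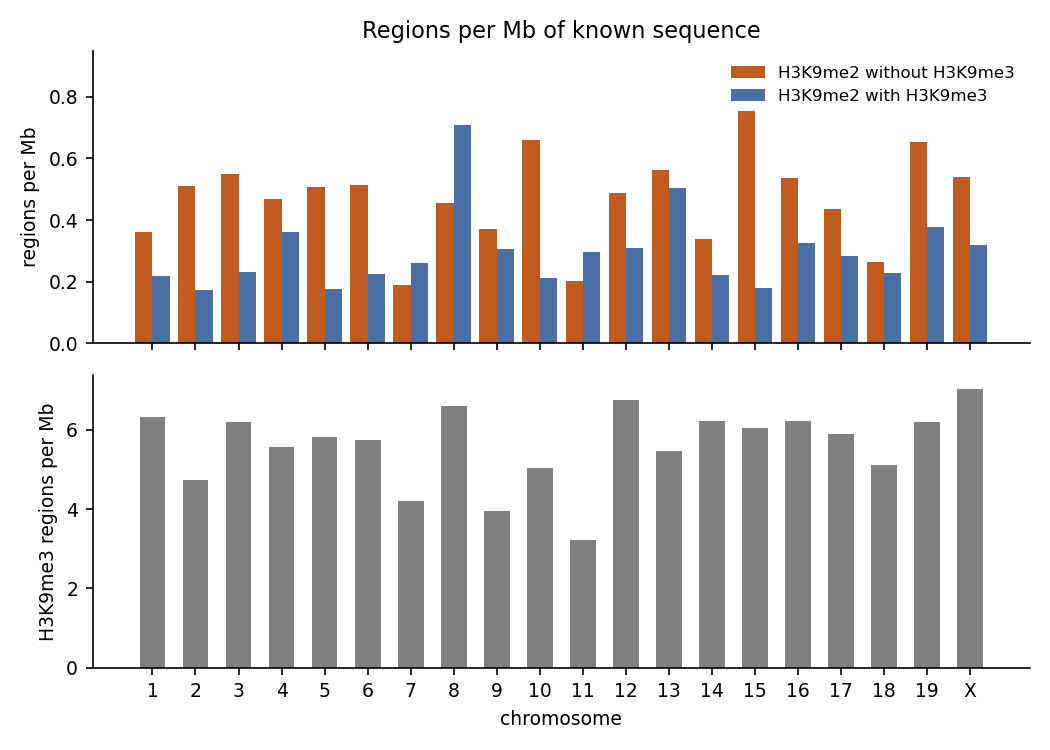
Regions per Mb of known sequence on each chromosome, for H3K9me2-only regions (orange) and shared regions (blue) above, and for H3K9me3 regions below. Chromosome 15 has the highest H3K9me2-only density (0.76 per Mb) and chromosome 7 the lowest (0.19 per Mb), while the shared regions peak on chromosome 8.

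Within chromosomes the regions were spread rather than gathered at the ends. The 5 Mb that follow the first 3 Mb held 59 H3K9me2-only regions (4.98%) and the last 5 Mb held 37 (3.13%), where each of these windows is 3.89% of the sequence beyond 3 Mb. Of the 739 shared regions 89 and 61 lay there. Cut into 5 equal parts from the centromeric end, the chromosomes held 256, 265, 268, 246 and 149 H3K9me2-only regions. Of 2645 bins of 1 Mb, 785 held at least 1 of them, 535 held exactly 1 and 13 held 5 or more. Only 35 regions lay within 10 kb of another H3K9me2-only region, and 247 within 100 kb.

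The 3 fullest bins differed in what else they held. Chromosome 8 from 20 to 21 Mb had 14 H3K9me2-only regions, 46 shared regions and 76 H3K9me3 regions, over a cluster of predicted genes such as Gm21092, Gm21119 and Gm21182. Its 14 regions summed to 347 reads in KO1, 329 in KO2, 285 in WT1 and 447 in WT2, and per library total the KO sums lay between those of the WT libraries. Chromosome 4 from 51 to 52 Mb had 9 H3K9me2-only regions, none over a gene, with 0 shared and 9 H3K9me3 regions, and summed to 119, 124, 161 and 129 reads in the same order. Per library total these were 21.5 RPM in KO1, 22.9 in KO2 and 19.9 in WT2, with WT1 lowest, so both KO libraries lay above both WT libraries, and after TMM the order turned. Chromosome 10 from 15 to 16 Mb had 7, with 0 shared and 4 H3K9me3 regions, and summed to 70 reads in KO1, 129 in KO2 and 84 in WT2, or 12.7, 23.8 and 12.9 RPM, with WT1 at 13.7 RPM. By RPM, KO2 stood above the other libraries there. Predicted genes of one array can share reads, so the split between regions of the chromosome 8 cluster is uncertain.

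The distance to the nearest H3K9me3 region ran from 1 base to 3846 kb, with a median of 45.5 kb and quartiles at 13.1 and 140 kb. Sharing no base set the lower end, which is part of the rule. Of the 1184 regions, 61 (5.15%) lay within 1 kb, 238 (20.1%) within 10 kb, 625 (52.8%) within 50 kb, 807 (68.2%) within 100 kb and 1127 (95.2%) within 500 kb. Of the known bases of the same chromosomes, 1.27%, 9.75%, 31.0%, 44.4% and 82.1% lay within those distances or inside a region. The H3K9me2-only regions were thus nearer to H3K9me3 than an even spread over the genome at each distance. The nearest H3K9me3 regions were themselves weak, with a median mean count of 14.8 and 1 summit in 88.8% of them, close to the 15.8 and 87.2% of all H3K9me3 regions on these chromosomes. The H3K9me3 reads within H3K9me2-only regions were not analysed here, so the set is defined by listed regions and not by the H3K9me3 level.

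**Figure D4:**
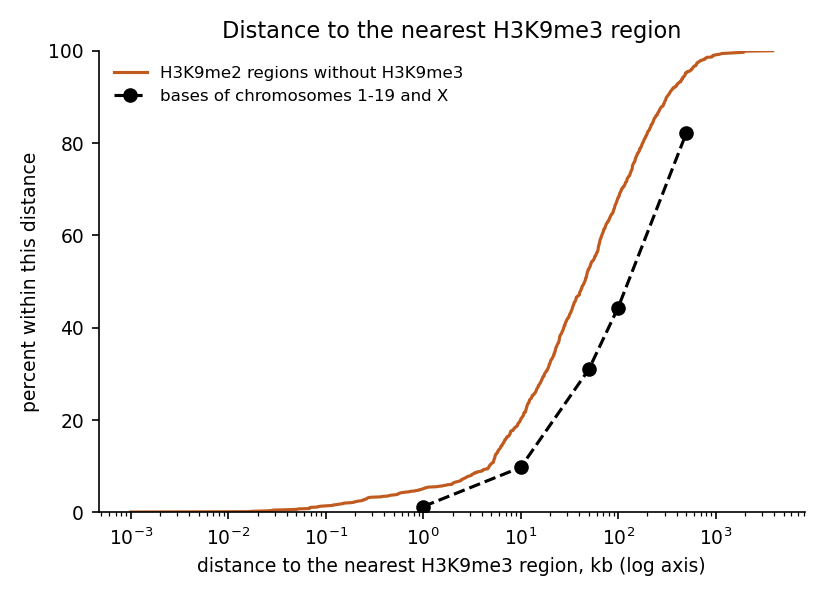
Percent of the 1184 H3K9me2-only regions within a given distance of the nearest H3K9me3 region (orange line, log axis in kb), beside the percent of known bases of chromosomes 1 to 19 and X (black points at 1, 10, 50, 100 and 500 kb). The orange line lies above the points throughout, for example at 52.8% against 31.0% within 50 kb.

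The regions just inside and just outside the rule are given as single cases. The 3 nearest members lay 1, 16 and 18 bases from H3K9me3. The first, in an intron of 2410141K09Rik on chromosome 13, had 6 (KO1), 9 (KO2), 5 (WT1) and 38 (WT2) reads. The next, 24.3 kb from Gm44039 on chromosome 6, had 15, 21, 25 and 15 reads, and the last, 27.3 kb from Ndst4, a heparan sulfate sulfotransferase gene, had 13, 27, 14 and 10. The 3 shared regions with the least overlap, 2, 4 and 9 bases, had 17, 16, 11 and 47 reads (intron of Cfap53), 7, 22, 14 and 3 reads (52.5 kb from Mir509) and 5, 24, 2 and 5 reads (intron of Gm6956). All 6 listed 1 summit.

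Farther out the signal changed little. The median of the regions' mean counts was 14.8 within 1 kb of H3K9me3, 14.2 from 1 to 10 kb and 15.4 from 100 to 500 kb. Beyond 500 kb, where 57 regions lay, median counts were 20 (KO1), 14 (KO2), 10 (WT1) and 12 (WT2). The Spearman correlation of distance with mean count was 0.09 over 1184 regions. The median soft-masked share of bases, which marks repeats in the reference, was 60.8% from 1 to 10 kb, 68.4% from 10 to 50 kb and 32.1% beyond 500 kb. The farthest region, 3846 kb from H3K9me3, lies in an intron of Usp32, a deubiquitinase gene on chromosome 11 (85121921 to 85122160), and had 13, 22, 13 and 10 reads. The next, 2003 and 1968 kb away, lie on chromosome 1. The one near Gm23534 had 21, 10, 30 and 15 reads, and the one near Gm22132 had 8, 14, 7 and 29 reads. None of the 3 had both KO libraries apart from both WT libraries by RPM other than the Usp32 region, where KO was at 2.35 and 4.06 and WT at 1.54 and 1.54.

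In base composition the set was richer in G and C than the genome and more repeated. The median GC content was 49.4%, against 41.8% of the genome, and 1128 regions (95.3%) lay above the genome value. The shared regions had 48.6%. The median soft-masked share was 61.9% of bases, against 53.5% in the shared regions and 34.3% of the genome. Only 83 regions (7.01%) had no masked base. Short tandem repeats were rare: 4 regions (0.338%) had them over more than 50% of their bases, against 26 shared regions (3.52%).

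Most H3K9me2-only regions lay between genes. In GENCODE, 788 (66.6%) were intergenic, 345 (29.1%) intronic and 51 (4.31%) touched an exon. Any gene was overlapped by 33.4% of them and a protein-coding gene by 25.3%, where genes cover 47.3% and protein-coding genes 40.4% of the known bases. Of the shared regions 48.2% overlapped a gene and 13.1% an exon. A gene start lay within 1 kb of 50 H3K9me2-only regions (4.22%) and of 90 shared regions (12.2%).

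The gene lists held few of these regions. The genes of the H3K9 methylation machinery (18 genes), germline genes (17) and imprinted genes (28), which are classes known for H3K9 methylation or its control, had 0 H3K9me2-only regions over them. They had 0, 0 and 1 shared regions. All protein-coding genes together had 299 H3K9me2-only regions over them, so a count of 0 in lists this short says little. Olfactory and vomeronasal receptor genes, silent outside sensory neurons, had 8 shared regions and 14 H3K9me2-only regions, the latter over 14 of 1966 annotated genes. Of these 14, 10 had a KO mean above the WT mean after TMM, beside 58.1% of all H3K9me2-only regions and 54.6% of all 1983 regions, and 0 passed the test. The region at Olfr39 had 28 (KO1), 26 (KO2), 17 (WT1) and 11 (WT2) reads. That at Vmn1r42 had 32, 12, 10 and 10, that at Olfr1300-ps1 10, 31, 21 and 8, that at Olfr1305 12, 28, 18 and 10, and that at Vmn2r82 11, 27, 10 and 12. Per library total both KO libraries lay above both WT libraries in all of these but Olfr1300-ps1, and after TMM only at Olfr39.

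Zinc finger and protocadherin genes had a few more. Genes with Zfp, Zkscan or Zscan symbols had 3 regions over 448 genes, against 12 shared regions. The Zfp697 region listed 4 summits and had 75, 64, 62 and 56 reads, among the strongest of the set. The region over an exon of Zfp804a had 23, 33, 11 and 13 reads and that in an intron of Zfp729b 21, 29, 11 and 12. In both, the KO libraries were above the WT libraries, and neither passed the test (edgeR adjusted p = 0.268 and 0.329 per library total, n = 2 per group). Protocadherin genes, which encode cell adhesion proteins, had 5 regions, all in introns of Pcdh15 and Pcdh7 and none shared. One in Pcdh7 had 0 reads in both KO libraries, 4 in WT1 and 18 in WT2 (adjusted p = 0.541 after TMM), and the highest in Pcdh15 had 27, 16, 15 and 18. None of the 22 regions over these 3 lists of genes passed the test under either scaling, where 1.92% (TMM) and 5.75% (library totals) of all regions did, so a count of 0 among 22 says little about them.

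The size of the difference between KO and WT varied with how libraries were scaled. Divided by library totals, the 1184 regions had a median log2 value of 4.12 in KO1, 4.56 in KO2, 3.35 in WT1 and 3.58 in WT2. Both KO libraries lay above both WT libraries. The median difference between KO and WT was 0.84 on the log2(scaled count + 1) scale, with 930 regions (78.5%) higher in KO (exact permutation p = 0.333 over the 4 library medians, n = 2 per group). After TMM the library medians were 3.83, 4.18, 3.78 and 3.73 in the same order, and the difference was 0.22 with 688 regions (58.1%) higher (exact permutation p = 0.333, n = 2 per group). KO1 then differed from the WT libraries by less than KO1 differed from KO2. Without KO2 the median difference after TMM was -0.01, and per library total it was 0.56. Over all 1983 H3K9me2 regions the median differences were 0.73 per library total and 0.09 after TMM. Of the H3K9me2-only regions, 69.8% were highest in a KO library by RPM and 61.5% after TMM. If regions were listed for being high in 1 library, the listing can enter these differences, and its part was not tested.

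The H3K9me2-only regions were compared with the shared regions inside each library, where scaling matters little. Their median log2 value lay below that of the shared regions (difference of -1.34 in KO1, -0.96 in KO2, -1.43 in WT1 and -1.82 in WT2). The gap was narrower in both KO libraries, by 0.48 on average (KO -1.15 ± 0.27, WT -1.62 ± 0.27, SD, n = 2 per group, exact permutation p = 0.333). The value moved between 0.28 and 0.67 when single libraries were left out. Restricted to regions with 1 summit in both sets, it was 0.31 and the libraries of the genotypes overlapped (exact permutation p = 0.667, n = 2 per group). After TMM 61.5% of the H3K9me2-only regions and 46.0% of the shared regions were highest in a KO library. The listing of regions can therefore enter the difference between the sets, and its part was not tested.

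The median difference between genotypes fell from the weaker to the stronger H3K9me2-only regions, and after TMM its sign turned. Per library total, the median log2 difference was 1.26 in the 62 regions with a mean count under 10, 0.92 in the 565 from 10 to 15, 0.79 in the 379 from 15 to 20 and 0.67 in the 125 from 20 to 30. It was 0.51 in the 41 regions from 30 to 60 and 0.16 in the 12 above 60. After TMM the medians of the same 6 classes were 0.71, 0.31, 0.17, 0.04, -0.15 and -0.50, from the weakest to the strongest. The shared regions showed no such order per library total, with medians of 0.56, 0.69, 0.47, 0.50, 0.55 and 0.67 over these classes. After TMM their medians were 0.24, 0.08, -0.13, -0.13, -0.10 and 0.004. Their sign thus turned as well, without a fall through to the strongest class. The classes were cut by the same counts that give the difference, and no test was made. Weak regions may also have been listed through the 1 library where they were high, which was not tested either. By distance to H3K9me3 the median per library total ranged from 0.72 to 0.96 over 6 classes with no order, and its Spearman correlation with distance was -0.02. The 3 largest sequence groups had medians of 0.85, 0.52 and 0.89, and the 669 regions without a like region 0.84.

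Chromosomes differed in the size and in the libraries that carried it. On chromosome 19 the TMM-scaled median log2 values of 38 regions were 4.54 in KO1, 4.67 in KO2, 3.72 in WT1 and 3.73 in WT2, a median difference of 0.66. The 22 shared regions of chromosome 19 had 0.48. On X, with 88 regions, the values were 3.45 in KO1, 4.45 in KO2, 2.88 in WT1 and 3.96 in WT2, a median difference of 0.46. Both libraries numbered 1 were low and both numbered 2 high, by about 1 log2 unit, and KO was above WT within each number. On chromosome 7, with 27 regions, WT2 stood at 4.80 and the others at 3.63 (KO1), 3.77 (KO2) and 3.89 (WT1), a median difference of -0.45. The copy number of these chromosomes in the cell lines was not measured, and copy number and mark level cannot be told apart here.

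Single regions rarely passed the test. With TMM, edgeR's quasi-likelihood test called 3 of 1184 H3K9me2-only regions at an adjusted p under 0.05, 0 higher and 3 lower in KO, where 1.92% of all 1983 H3K9me2 regions were called (0.202% higher and 1.71% lower). Per library total it called 2, both higher, where 5.75% of all regions were called (5.5% higher and 0.252% lower). The H3K9me2-only share called was 0.253% and 0.169%, in a set whose counts are lower than those of the shared regions, and the part of the counts in this was not tested. With such counts and 2 libraries per group, few calls do not show that few regions changed. At an unadjusted p under 0.05 there were 35 after TMM (9 higher, 26 lower), where 9.33% of all regions passed (2.12% higher and 7.21% lower). Per library total there were 102 (101 higher, 1 lower), where 17.8% of all regions passed (16.8% higher and 0.958% lower). Both KO libraries lay above both WT libraries in 244 regions (20.6%) after TMM, beside 20.0% of all regions, and in 506 (42.7%) per library total, beside 45.5%. They lay below in 151 (12.8%) and 38 (3.21%), beside 16.7% and 3.98%. These shares were near or under the background.

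**Figure D5:**
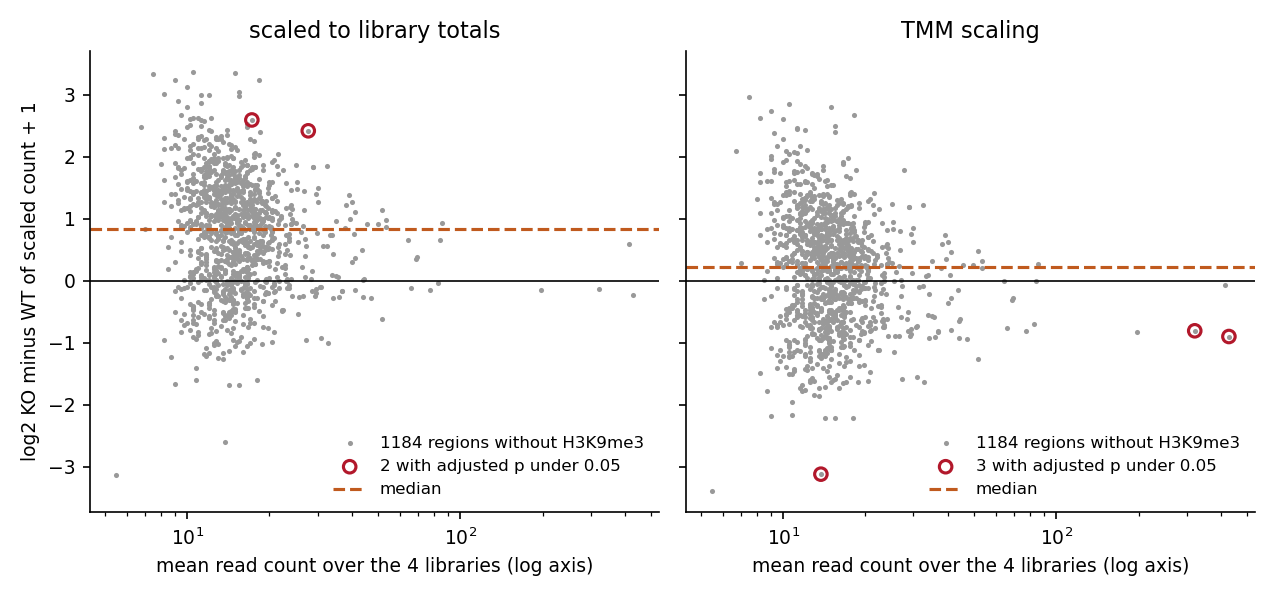
KO minus WT difference on the log2(scaled count + 1) scale against the mean read count over 4 libraries (log axis) for the 1184 H3K9me2-only regions, scaled to library totals (left) and with TMM (right). Red circles mark regions with an edgeR adjusted p under 0.05, 2 on the left, both above 0, and 3 on the right, all below 0. The dashed median lies at 0.84 on the left and 0.22 on the right.

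The 3 regions with the highest mean RPM differed in direction per library total, and none of them passed the test on that scale. The region in an intron of Kynu, the gene of kynureninase in tryptophan breakdown, had 335 (KO1), 321 (KO2), 629 (WT1) and 429 (WT2) reads. These were 60.6, 59.2, 74.7 and 66.0 RPM, both KO libraries below both WT libraries. edgeR gave a log2 difference of -0.92 ± 0.23 (SE) after TMM (adjusted p = 0.0071, n = 2 per group) and of -0.23 ± 0.25 per library total (adjusted p = 0.601, n = 2 per group). The region in an intron of Dst, which encodes the cytoskeletal linker dystonin, on chromosome 1 (33990793 to 33991234) had 249, 268, 387 and 381 reads, or 45.1, 49.4, 46.0 and 58.6 RPM. It differed by -0.81 ± 0.23 after TMM (adjusted p = 0.0372) and by -0.15 ± 0.25 per library total (adjusted p = 0.777), and by RPM the genotypes overlapped. The region over the pseudogene Fau-ps2 on chromosome 11 (3196503 to 3196768), 1.44 kb from H3K9me3, had 427, 446, 458 and 329 reads, or 77.3, 82.3, 54.4 and 50.6 RPM, both KO libraries above both WT libraries. Its difference was 0.60 ± 0.25 per library total (adjusted p = 0.154) and -0.08 ± 0.23 after TMM (adjusted p = 0.88).

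The other called region that was lower lies 9.13 kb from Vmn2r49, a vomeronasal receptor gene, on chromosome 7 (10001384 to 10001656). It had 1 read in KO1, 3 in KO2, 10 in WT1 and 41 in WT2, and matched 34 H3K9me3 regions elsewhere. The KO reads, 4 against 51 in WT, gave a ratio of 0.107 per library total, with an exact counting interval of 0.0281 to 0.291. edgeR gave -3.85 ± 1.14 after TMM (adjusted p = 0.0449) and -3.28 ± 1.33 per library total (adjusted p = 0.147). WT2 alone held most of its reads, and without WT2 the adjusted p after TMM was 0.199. Its sequence is printed because the call rests on few reads in a masked stretch, with capitals for bases that the reference does not mask.
chr7:10001385-10001656, plus strand, nearest gene Vmn2r49: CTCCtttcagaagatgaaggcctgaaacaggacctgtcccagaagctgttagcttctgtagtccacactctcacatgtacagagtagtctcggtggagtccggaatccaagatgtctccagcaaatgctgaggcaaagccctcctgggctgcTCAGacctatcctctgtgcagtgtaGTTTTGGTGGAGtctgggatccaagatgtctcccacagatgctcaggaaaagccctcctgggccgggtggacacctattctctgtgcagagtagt

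The pair that passed the test per library total was higher in both KO libraries. The first lies 52.8 kb from the pseudogene Gm5697 on chromosome 1 (28855538 to 28856130) and had 49 (KO1), 41 (KO2), 12 (WT1) and 9 (WT2) reads. Its difference was 2.53 ± 0.71 per library total (adjusted p = 0.0105) and 1.86 ± 0.72 after TMM (adjusted p = 0.209). The region is wholly soft-masked and runs through a purine-rich tandem array, and 100 bases from its centre are shown, marked the same way. The second lies 57.9 kb from 5430427O19Rik on X (85949385 to 85949624), belongs to the largest sequence group and had 26, 32, 5 and 6 reads. Its difference was 2.79 ± 0.92 per library total (adjusted p = 0.044) and 2.13 ± 0.95 after TMM (adjusted p = 0.377). X was also the chromosome where libraries of one genotype differed most.
chr1:28855785-28855884, plus strand, nearest gene Gm5697: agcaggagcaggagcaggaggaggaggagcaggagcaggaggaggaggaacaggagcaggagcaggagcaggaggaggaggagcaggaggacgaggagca
chrX:85949386-85949624, plus strand, nearest gene 5430427O19Rik: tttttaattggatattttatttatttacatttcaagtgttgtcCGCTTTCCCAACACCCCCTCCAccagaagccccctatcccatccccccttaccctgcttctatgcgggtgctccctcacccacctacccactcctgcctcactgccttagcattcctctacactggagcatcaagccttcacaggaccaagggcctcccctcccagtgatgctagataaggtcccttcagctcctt

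All 5 calls were lost when a KO library was left out, and fewer when a WT library was. Leaving out KO1 or KO2 left 0 calls after TMM and 0 per library total, with a single KO library assumed to vary like the WT libraries. Leaving out WT1 gave 9 calls after TMM (1 higher, 8 lower) and 18 per library total (15 higher, 3 lower), and leaving out WT2 gave 4 (all lower) and 13 (all higher). The Dst call after TMM held without WT1 (adjusted p = 0.0119) and without WT2 (0.00932), but was lost with DESeq2 size factors in edgeR (0.0572) and with reads in regions as library size (0.0806), as was the call near Vmn2r49 (0.0543 and 0.0682). The call near Gm5697 per library total held without either WT library (0.0107 and 0.00499). The Kynu call was lost without WT1 (adjusted p = 0.0638, edgeR), and the X call was lost without either. DESeq2 called 2 regions after its own scaling, Kynu and Dst, and 0 per library total. It gave no adjusted p for 1180 and 1167 of the 1184 regions because of their low counts. Among those were the region near Vmn2r49 after its own scaling and both regions that edgeR called per library total.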

How the data were processed

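H3K9me2 and H3K9me3 ChIP-seq of HAT1 WT and HAT1 KO MEFs was analysed from one table per mark. The submitters' processing notes name BWA 0.7.12, MACS2 2.1.0, DiffBind and build mm10. The authors deposited read counts per region, which are not normalized, and RPM, which equals the count plus 1 over one total per library; RPM printed here leaves out the added 1. No source used here says if the spike-in entered that total. The 8 deposited columns of fold enrichment per library and the authors' fold changes, p-values and q-values were not used. Removal of repeat rows took out 62 H3K9me2 and 314 H3K9me3 rows. Coordinates of regions are as deposited, with starts counted from 0.

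Changed regions were called on all 1983 H3K9me2 regions with edgeR 4.0.16 in R 4.3.3 (quasi-likelihood test, two-sided, Benjamini-Hochberg), with TMM factors and with library totals alone. DESeq2 1.42.0 was an alternative. The script was tested on simulated counts with the depth and spread of these libraries, where it made no false call. It left all of the smaller changes and most of the larger ones uncalled. Medians used counts scaled to the mean library with a pseudocount of 1 and an exact permutation test over libraries. Sequence likeness was found with BLAST+ 2.17.0 in GRCm38.p6, and genes came from GENCODE release M21.

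The named regions were the 3 with the highest mean RPM, those called with both KO libraries on one side of both WT libraries, the 3 farthest from and the 3 nearest to H3K9me3, the 3 with the smallest overlap, the 3 fullest 1 Mb bins and up to 5 per gene list. Members and lists were chosen with earlier results of these data known. The sequence of 1 named region is not reported here.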

Additional observations from a re-analysis of the deposited data

How the results depend on the processing

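The number of H3K9me2-only regions called after TMM was 1 with DESeq2 size factors or with reads in regions as library size, against 3, and ranged from 0 to 9 when a library was left out. Per library total it was 0 with DESeq2, 13 at an adjusted p under 0.1, 1 for members at least 10 kb from H3K9me3 and 1 on autosomes, against 2, and ranged from 0 to 18 when a library was left out. The median difference after TMM was -0.0091 without KO2 and 0.24 to 0.28 without another library, so its sign rested on KO2. The median per library total ranged from 0.56 to 1.01, the difference between the sets from 0.28 to 0.67 and the difference in the share of reads from 0.128 to 0.181 percentage points when a library was left out. KO and WT libraries of one replicate number come from different embryos, and the labels do not say whether they were prepared together. Deviations of same-numbered libraries correlated at 0.03 over 1983 regions. With a replicate block, 2 regions were called after TMM and 3 per library total, 2 of them in each case called without it. A minimum mean count of 10, an overlap of 50% of the shorter region and regions with 1 summit kept the direction of the medians and calls computed under them, and a pseudocount of 0.1 that of the medians. The genotypes overlapped (exact permutation p = 0.667, n = 2 per group) in the median after TMM on autosomes (0.20), with 1 summit (0.23) and with reads in regions as library size (0.21). They also overlapped in the difference between the sets on autosomes (0.40) and with 1 summit (0.31).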
